A study of Mus musculus with 4 samples.

Results

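The glutathione, thioredoxin and NRF2 antioxidant genes were read in adipocyte precursors sorted from mice labelled Per3 KO and from wild-type (WT) mice. Members were taken by gene name alone. They are the alpha, kappa, mu, omega, pi and theta glutathione S-transferases, the glutathione peroxidases, the peroxiredoxins, the superoxide dismutases, the numbered thioredoxins and thioredoxin reductases, and 11 single genes around the regulator NRF2. The rule found 53 genes among the 20207 listed, all of them present in each of the 4 tables.

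The libraries were Per3 KO 1 and Per3 KO 2, against WT 1 and WT 2 from littermates. All came from adipose tissue of young C57BL/6 mice at ZT2, early in the light phase, and were sorted as Sca1+ CD45- CD31- cells and lysed at once. Per3 is a period gene of the circadian clock. The sources used here give neither the altered part of Per3 nor the number of animals behind a library, so the replicate spread may be technical and p-values measure that spread alone. Because the cells were read in bulk, fewer cells of a type and less RNA per cell cannot be told apart.

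Gene reads totalled 40003115 and 64964443 in the KO-labelled libraries, against 37101227 and 27950825 in the WT libraries, and the 53 members took 1.15% to 1.35% of them. Per3 itself had 193 and 768 reads in the KO-labelled libraries, against 121 and 170 in WT, so its level does not check the genotype and the libraries are called KO-labelled below. All 15 precursor markers of the list were detected, at uneven levels. Ly6a, which encodes Sca1, stood at 3767 and 2133 CPM (counts scaled to a common library size with TMM factors) in Per3 KO 1 and Per3 KO 2, against 2597 and 14274 CPM in WT 1 and WT 2. Pparg stood at 28.3 and 21.5 CPM in the KO-labelled libraries, against 27.1 and 2.54 CPM in WT. Zfp423 stood at 8.74 and 8.49 CPM, against 7.38 and 16.5 CPM in WT. WT 2 stood apart. It was the highest library for 23 and the lowest for 18 of the 49 members tested, or 46.9% and 36.7%, beside 31.3% and 35.0% of all genes tested. The median member differed by 0.52 on the log2(CPM + 0.5) scale within the KO-labelled pair and by 1.12 within the WT pair, beside 0.55 and 0.90 over all genes tested. Values without WT 2 are given beside fold changes and medians that it moved by much.

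As background, cells hold hydrogen peroxide in check with a pair of parallel thiol systems. Glutathione peroxidases are fed by glutathione, and peroxiredoxins by thioredoxin, while superoxide dismutases and catalase act on the reactive oxygen directly. The transcription factor NRF2 is kept low by KEAP1, which marks it for degradation, and on electrophile or oxidant stress it switches on detoxifying and glutathione-making enzymes through the antioxidant response element. In fat tissue, NRF2 and glutathione balance have been tied to the differentiation of precursors into adipocytes.

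The members ranged from undetected to abundant. The mean level over the 4 libraries, per transcript length as the deposited RPKM, was at least 100 in 15 members, at least 10 in 31 and under 1 in 9. Gpx3, the secreted glutathione peroxidase, was the most abundant at a mean of 978 RPKM. It was followed by Prdx1 at 527 RPKM, Gstm1 at 497 RPKM and Gstm2 at 472 RPKM. Neighbours in the order of mean RPKM overlapped over the libraries at all but 2 steps, from Gstm2 down to Gpx8 (247 RPKM) and from Sod2 (10.3 RPKM) down to Gstm4 (6.61 RPKM).

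**Figure D1:**
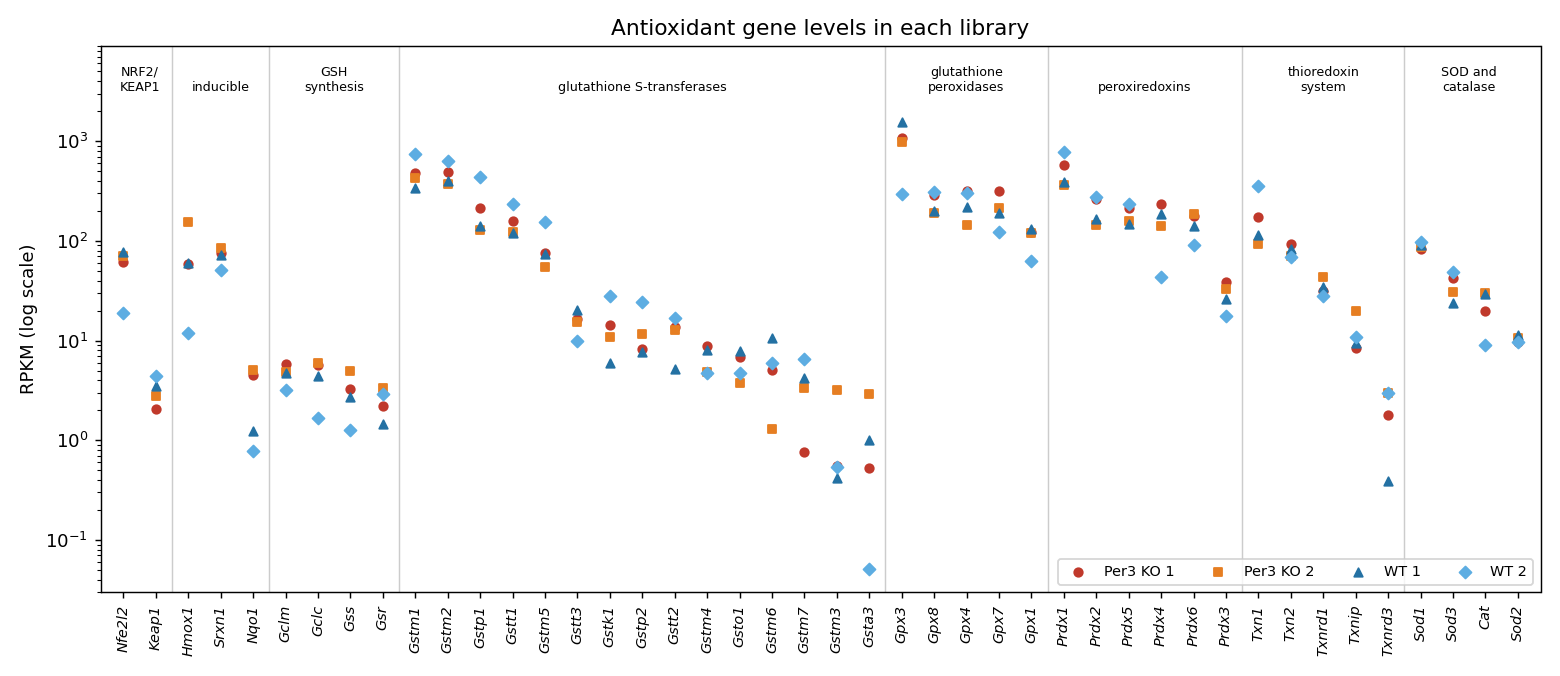
RPKM (log scale) of the members with a mean of at least 1 RPKM, by role and by falling mean within a role; each point is 1 library. WT 2 often lies at an edge of the 4 points, as for Nfe2l2 (18.7 RPKM) and Txn1 (357 RPKM), and Nqo1 has both KO-labelled points (4.48 and 5.11 RPKM) above both WT points (1.23 and 0.785 RPKM).

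The comparison of KO-labelled with WT precursors gave no call among these genes. Of the 53 members, 49 passed the filter on low counts, and the quasi-likelihood test of edgeR, with p-values adjusted by Benjamini-Hochberg over 12494 genes, called 0 of them, beside a background of 0% called over all genes. DESeq2 and limma also called 0 members, beside 14 of 12494 genes with DESeq2 and 1 of 8290 with limma. A single member, Nqo1, had an unadjusted p under 0.05 in edgeR, which is 1 of 49 beside 2.06% of all genes tested, and DESeq2 put 5 of 49 members there, beside 3.91% of all genes. Log2 fold changes were positive in 22 and negative in 27 members. Their median was -0.13, against 0.01 over all genes, and their median size was 0.51, against 0.48. Members lay apart between the groups about as often as other genes did. In 8 members both KO-labelled libraries were above both WT libraries, or 16.3% beside a background of 14.6%, and in 6 both were below, or 12.2% beside 11.5%. Every member tested had an edgeR adjusted p of 1.00, which holds for each fold change given below.

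**Figure D2:**
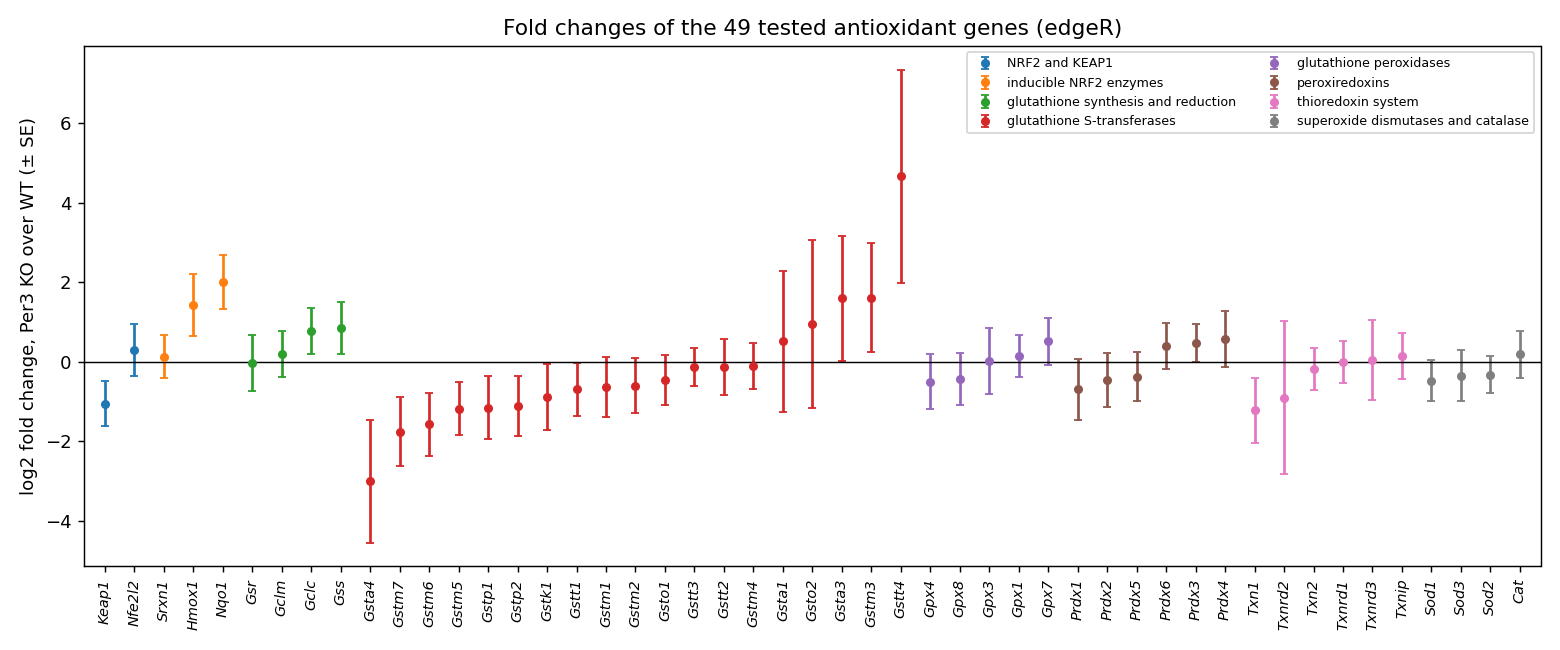
Log2 fold change of Per3 KO over WT with its standard error for the 49 tested members, coloured by role (edgeR, 2 libraries in each group). Nqo1 (2.00), Hmox1 (1.42), Keap1 (-1.06) and several others lie away from 0 by more than their error. Many transferases lie below 0, and the widest errors belong to members with few reads such as Gstt4.

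NRF2 and KEAP1 come first as the regulators. Nfe2l2, which encodes NRF2 (mm9 chromosome 2, 75513576 to 75542698), was at 269 and 289 CPM in Per3 KO 1 and Per3 KO 2, against 341 and 114 CPM in WT 1 and WT 2. Both KO-labelled values lay between those of the WT pair. Its log2 fold change of 0.29 ± 0.66 (SE) was -0.28 without WT 2 and 1.29 without WT 1. Keap1, which encodes the adaptor that targets NRF2 for degradation (mm9 chromosome 9, 21034174 to 21043776), was at 11.5 and 14.6 CPM in the KO-labelled libraries, against 19.5 and 34.7 CPM in WT. The groups did not overlap, with means of 13.0 ± 2.19 and 27.1 ± 10.7 CPM (SD, n = 2 each). Its log2 fold change of -1.06 ± 0.56 (SE) stayed negative with any library left out, between -1.41 and -0.58. Per length, Nfe2l2 exceeded Keap1 29.9-fold and 25.3-fold in the KO-labelled libraries, against 22.3-fold and 4.20-fold in WT.

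Of the inducible enzymes, Nqo1 was the member with the lowest unadjusted p. It encodes a quinone reductase that is a classical NRF2 target (mm9 chromosome 8, 109912125 to 109927105). It had 511 and 972 reads in Per3 KO 1 and Per3 KO 2, against 130 and 70 reads in WT 1 and WT 2. Scaled, these were 12.3 and 13.3 CPM in the KO-labelled libraries, against 3.39 and 3.01 CPM in WT, so each pair agreed closely and the groups were well apart. The means were 12.8 ± 0.707 and 3.20 ± 0.270 CPM (SD, n = 2 each). This is a log2 fold change of 2.00 ± 0.69 (SE), with an unadjusted p of 0.0215 in edgeR, and it did not pass the test over all genes (edgeR adjusted p = 1.00). Leaving out any library kept it between 1.93 and 2.09.

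Hmox1 encodes heme oxygenase, another NRF2 target that is also induced by heme itself. It was at 165 and 406 CPM in Per3 KO 1 and Per3 KO 2, against 167 and 46.8 CPM in WT 1 and WT 2. Per3 KO 1 and WT 1 were nearly equal, so the groups overlapped, with a log2 fold change of 1.42 ± 0.78 (SE). It was 0.63 without Per3 KO 2, 0.79 without WT 2 and 2.61 without WT 1. The summed hepatocyte markers, at 88.4 and 1655 CPM in the KO-labelled libraries, against 459 and 82.7 CPM in WT, were likewise highest in Per3 KO 2 and lowest in WT 2, and their part in Hmox1 was not tested. Srxn1, the sulfiredoxin that repairs over-oxidised peroxiredoxins, was at 344 and 371 CPM in the KO-labelled libraries, against 330.3 and 326 CPM in WT. Its groups did not overlap, but they differed by a log2 fold change of only 0.12 ± 0.54 (SE).

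The antioxidant response element core, written TGACNNNGC, was searched on both strands in the 250 bases before each annotated start in RefSeq's GRCm38.p6, a later build than the mm9 of the counts. Promoters were found for 46 of the 53 members. The other 7, Gclc, Gsr, Gsta4, Gstt2, Hmox1, Prdx6 and Sod3, had no promoter entry and were not searched. The core occurred in 8 of these genes, or 17.4%, beside 11.5% of 27025 genes with a promoter of the same length. The 8 stretches are shown next to the values of those genes as matches to the letters of the core alone. Binding of NRF2 to them was not tested. Capitals mark the core, in the gene's own direction, so that a core on the opposite strand reads GCNNNGTCA.
Nfe2l2, chr2:75704879-75704913, minus strand: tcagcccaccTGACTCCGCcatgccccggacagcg
Gclm, chr3:122245407-122245447, plus strand: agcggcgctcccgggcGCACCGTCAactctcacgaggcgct
Gstm5, chr3:107895796-107895836, plus strand: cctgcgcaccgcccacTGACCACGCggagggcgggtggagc
Gstm7, chr3:107931719-107931759, minus strand: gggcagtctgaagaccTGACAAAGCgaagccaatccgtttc
Gsta3, chr1:21240448-21240488, plus strand: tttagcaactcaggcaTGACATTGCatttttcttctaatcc
Prdx1, chr4:116685450-116685490, plus strand: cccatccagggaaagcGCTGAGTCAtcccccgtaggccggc
Txnrd1, chr10:82859098-82859138, plus strand: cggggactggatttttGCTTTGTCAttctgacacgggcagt
Sod1, chr16:90220690-90220730, plus strand: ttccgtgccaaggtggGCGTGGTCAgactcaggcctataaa
The core began 42 bases before the start in Gstm5, 56 in Sod1, 92 in Txnrd1, 121 in Gsta3, 129 in Gstm7, 133 in Prdx1, 134 in Gclm and 240 in Nfe2l2. These 8 genes had log2 fold changes of both signs, between -1.76 for Gstm7 and 1.59 for Gsta3. The value of Gsta3 rested on Per3 KO 2, since it was -0.03 without that library, 0.71 without WT 2 and 4.50 without WT 1. Bases further upstream were not searched in any gene, and the same 250-base window of Nqo1 held no match to the core. It is shown as the promoter of the member with the lowest unadjusted p, chr8:107403206-107403455, minus strand: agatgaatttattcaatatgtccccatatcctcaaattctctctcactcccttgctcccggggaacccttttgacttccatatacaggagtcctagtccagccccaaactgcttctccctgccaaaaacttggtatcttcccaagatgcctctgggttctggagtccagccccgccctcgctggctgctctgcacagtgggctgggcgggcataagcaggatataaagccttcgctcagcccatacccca

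Glutathione synthesis and reduction were next. The first step is made by glutamate-cysteine ligase, with Gclc as its catalytic and Gclm as its modifier subunit. Gclc was at 23.5 and 23.3 CPM in Per3 KO 1 and Per3 KO 2, against 18.0 and 9.54 CPM in WT 1 and WT 2. The KO-labelled pair was almost equal and above both WT libraries. Its log2 fold change was 0.77 ± 0.57 (SE), or 0.39 without WT 2 and 1.29 without WT 1. Gclm was at 15.2 and 12.1 CPM, against 12.3 and 11.7 CPM in WT, with overlapping groups and a log2 fold change of 0.19 ± 0.58 (SE). Per length, Gclm was 1.02 and 0.818 times Gclc in the KO-labelled libraries, against 1.08 and 1.92 times in WT. Gss, the synthetase of the second step, was at 10.7 and 15.6 CPM, against 8.92 and 5.76 CPM in WT, again without overlap, and its log2 fold change of 0.84 ± 0.66 (SE) is given because the groups were apart. Gsr, which reduces oxidised glutathione, was at 10.4 and 15.1 CPM, against 6.86 and 19.4 CPM in WT, and the groups overlapped. With all 4 libraries, 3 of these 4 genes had a positive log2 fold change, a median of 0.48. With DESeq2 size factors 3 were positive, and with RPKM values 4 were.

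Glutathione S-transferases join glutathione to electrophiles. The 20 found by the rule were dominated by a handful of mu, pi and theta genes. Gstm1, Gstm2, Gstp1, Gstt1 and Gstm5 together made 94.8% and 93.9% of the summed RPKM of the family in Per3 KO 1 and Per3 KO 2, against 93.4% and 95.5% in WT 1 and WT 2. Gstt1 kept a nearly fixed share, between 10.2% and 10.7% in all 4 libraries. The summed level of the family was 2880 and 2192 CPM in the KO-labelled libraries, against 2222 and 6049 CPM in WT. WT 2 was thus well above every other library, while the other 3 lay close together.

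The abundant transferases followed that pattern one by one. Gstm1 was at 1098 and 925 CPM in Per3 KO 1 and Per3 KO 2, against 773 and 2384 CPM in WT 1 and WT 2. Both KO-labelled values were above WT 1 and below WT 2, and the log2 fold change of -0.64 ± 0.75 (SE) was 0.40 without WT 2. Gstp1 was at 281 and 162 CPM, against 186 and 804 CPM in WT, with a log2 fold change of -1.16 ± 0.80 (SE) that was 0.26 without WT 2. Gstm2, at 907 and 653 CPM against 744 and 1627 CPM in WT, and Gstt1, at 293 and 214 CPM against 219.9 and 604 CPM in WT, had log2 fold changes of -0.60 and -0.70. Without WT 2 these were 0.08 and 0.21. Gstm5 was at 122 and 82.8 CPM, against 120.3 and 344 CPM in WT, and its log2 fold change of -1.18 ± 0.66 (SE) was -0.23 without WT 2. Its sign was thus kept, but most of its size was not.

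**Figure D3:**
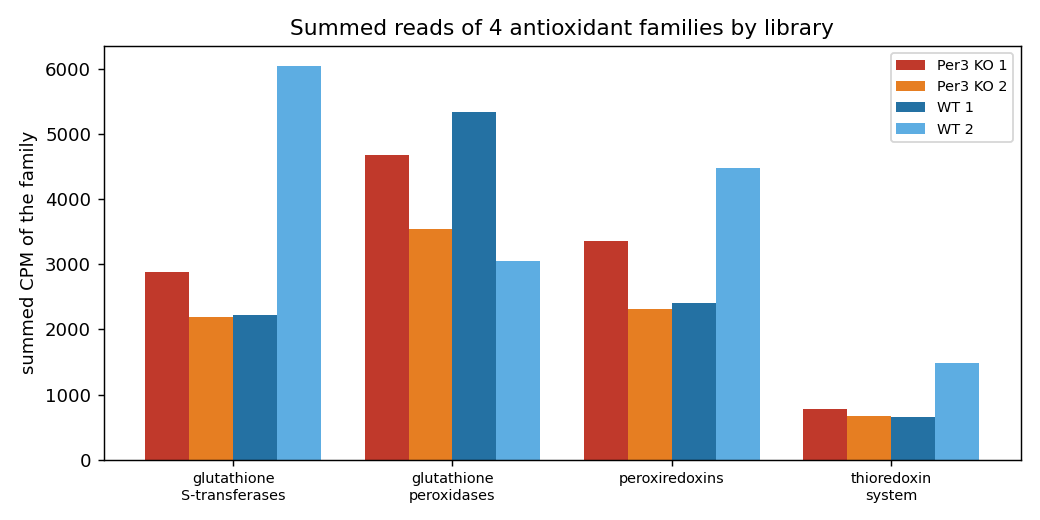
Summed CPM of 4 antioxidant families in each library (bars, 1 library each; no error is drawn because each bar is a single library). WT 2 has the highest sum for the transferases (6049 CPM), the peroxiredoxins (4471 CPM) and the thioredoxin system (1478 CPM), and the lowest for the glutathione peroxidases (3054 CPM).

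Among transferases of middle level, Gstk1, the kappa enzyme of mitochondria and peroxisomes, was at 23.4 and 17.0 CPM in Per3 KO 1 and Per3 KO 2, against 9.81 and 64.8 CPM in WT 1 and WT 2. The WT pair enclosed both KO-labelled values, and the log2 fold change of -0.88 ± 0.83 (SE) was 1.05 without WT 2. Gstp2, at 10.9 and 14.6 CPM against 10.3 and 45.1 CPM in WT, and Gstt2, at 33.3 and 29.4 CPM against 12.5 and 56.4 CPM in WT, were enclosed in the same way. Their log2 fold changes of -1.11 and -0.13 were 0.32 and 1.34 without WT 2. Gstt3 was at 54.8 and 48.7 CPM, against 67.9 and 45.6 CPM in WT, with a log2 fold change of -0.13 ± 0.48 (SE). Gsto1 and Gstm4, with means of 5.76 and 6.61 RPKM, also overlapped between the groups.

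A few transferases of lower level separated the groups. Gstm6, at 10.4 and 2.51 CPM in Per3 KO 1 and Per3 KO 2, against 21.5 and 17.0 CPM in WT 1 and WT 2, and Gstm7, at 1.76 and 7.27 CPM against 9.81 and 20.9 CPM in WT, lay wholly below WT. Both lie within the mu cluster on mm9 chromosome 3, between Gstm5, which starts at 107698772, and Gstm4, which ends at 107847777. The log2 fold change was -1.58 ± 0.79 (SE) for Gstm6 and -1.76 ± 0.87 (SE) for Gstm7. A different KO-labelled library was the lower one in each, and the values reached -2.95 to -0.89 for Gstm6 and -3.12 to -1.10 for Gstm7 with a library left out. Gsta4, an alpha enzyme that acts on lipid aldehydes such as hydroxynonenal, had 10 and 40 reads, against 180 and 40 reads in WT. As CPM these were 0.241 and 0.549, against 4.70 and 1.72 in WT, with a log2 fold change of -3.01 ± 1.54 (SE). Gstt4 was apart in the other direction, with 27 and 17 reads in the KO-labelled libraries, against 0.9312 and 0 in WT. Gstm6, Gstm7, Gsta4 and Gss were named after their values were seen, because their groups did not overlap.

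The remaining transferases had few reads or were uneven between libraries. Gsta3 had 53 and 480 reads in Per3 KO 1 and Per3 KO 2, against 93 and 3.998 in WT 1 and WT 2. Gstm3 had 47.72 and 464.5 reads, against 33.95 and 36.82 in WT, so Per3 KO 2 alone was high. The hepatocyte list given above, with all 12 of its genes detected and all 12 log2 fold changes positive, had the same order of libraries as Gsta3. The signs were not stable, since the 4 hepatocyte genes with the lowest p, highest in Per3 KO 2, had log2 fold changes as low as -10.2 to -2.78 with a library left out. The part of this list in Gsta3, Gstm3 and the other members was not tested. Gsta1 had between 6 and 78.94 reads and overlapped between the groups. Gsta2 had 1.914 and 2.996 reads in the KO-labelled libraries, against 51.93 and 0 in WT, and was too low to test. Gsto2 had 135 and 125 reads in the KO-labelled libraries, against 0 and 60 in WT. Counts that were not whole, by more than 1e-09, occurred in 8 members, among them Gsta1, Gsta2, Gstm3, Gstm4 and Gstp2, or 15.1% beside 23.8% of all genes. The deposited counts are rounded to 4 significant digits, so a fraction cannot show in larger counts. Mu, alpha and pi genes have near-identical copies, and their separate levels are uncertain.

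Over the family, log2 fold changes were above 0 in 5 of 19 tested transferases and below 0 in 14. The median of -0.60 was negative with DESeq2 size factors (-0.65) and with RPKM values (-0.24) too, but it was 0.21 without WT 2, where 11 of 19 were positive. None passed the test (edgeR adjusted p = 1.00 for each).

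Glutathione peroxidases use glutathione to reduce peroxides. Gpx3, the plasma form, had 114800 and 173200 reads in Per3 KO 1 and Per3 KO 2, against 153800 and 24820 in WT 1 and WT 2. Scaled, it was at 2772 and 2377 CPM in the KO-labelled libraries, against 4013 and 1067 CPM in WT, so again the WT pair enclosed the KO-labelled pair. The log2 fold change of 0.02 ± 0.83 (SE) was -0.63 without WT 2 and 1.27 without WT 1. Gpx3 made 50.8% and 59.3% of the summed RPKM of the peroxidases in the KO-labelled libraries, against 67.9% and 27.1% in WT.

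The other expressed peroxidases were read next. Gpx1, the main cytosolic form, was at 186 and 172 CPM in Per3 KO 1 and Per3 KO 2, against 196 and 130.02 CPM in WT 1 and WT 2. Gpx4, which guards membrane lipids and blocks ferroptosis, was at 525 and 225 CPM, against 363 and 704 CPM in WT. Both overlapped between the groups, with log2 fold changes of 0.13 ± 0.53 and -0.51 ± 0.69 (SE), which were -0.13 and 0.05 without WT 2. Gpx7 and Gpx8 act in the endoplasmic reticulum, where they use the peroxide made during protein folding. Gpx7 was at 682 and 437 CPM, against 412 and 372 CPM in WT, with both KO-labelled libraries above WT. Its log2 fold change of 0.51 ± 0.59 (SE) was 0.14 without Per3 KO 1. Gpx8, at 516 and 328 CPM against 358 and 781 CPM in WT, overlapped and had a log2 fold change of -0.43 ± 0.66 (SE), which was 0.24 without WT 2. Gpx2 had 3 reads in WT 1 and 0 elsewhere, Gpx5 had 0.9468 reads in Per3 KO 2 and 0 elsewhere, and Gpx6 had 0 in all 4 libraries. A count of 0 allows up to 0.0724 and 0.0412 CPM in Per3 KO 1 and Per3 KO 2, against 0.0783 and 0.129 CPM in WT 1 and WT 2 (3 reads, counting error only).

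Peroxiredoxins are the thioredoxin-fed peroxidases, and all 6 were expressed. Prdx1 of the cytosol was at 1439.7 and 864 CPM in Per3 KO 1 and Per3 KO 2, against 969.6 and 2747 CPM in WT 1 and WT 2. Prdx2 was at 437 and 226 CPM, against 279 and 633 CPM in WT, and Prdx5 at 259 and 184 CPM, against 178 and 395 CPM. In each of these 3, WT 2 was the highest library, and the log2 fold changes of -0.69, -0.46 and -0.37 were 0.25, 0.26 and 0.32 without it. Prdx4, the form of the endoplasmic reticulum, went the other way among libraries. It was at 401 and 230.0 CPM, against 318 and 106 CPM in WT, with WT 2 the lowest, and its log2 fold change of 0.57 ± 0.70 (SE) was -0.01 without WT 2.

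Prdx6 and Prdx3 separated the groups. Prdx6, which uses glutathione and also acts on phospholipids, was at 728 and 729 CPM in Per3 KO 1 and Per3 KO 2, against 587 and 527 CPM in WT 1 and WT 2. The KO-labelled pair agreed within 1 CPM, and the means were 728 ± 0.454 and 557 ± 42.4 CPM (SD, n = 2 each). Prdx3 of mitochondria was at 99.9 and 79.3 CPM, against 67.4 and 63.1 CPM in WT. The log2 fold changes were small, 0.39 ± 0.58 for Prdx6 and 0.46 ± 0.48 for Prdx3 (SE). They were between 0.32 and 0.47 and between 0.27 and 0.62 with a library left out. The median over the family was 0.01 with 3 genes on each side of 0, and it was -0.04 with DESeq2 size factors, 0.33 with RPKM values and 0.29 without WT 2, where 5 of 6 were positive.

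The thioredoxin system supplies electrons to the peroxiredoxins. Txn1, the cytosolic thioredoxin, was at 324 and 165 CPM in Per3 KO 1 and Per3 KO 2, against 215 and 928 CPM in WT 1 and WT 2. WT 2 was far above the rest, and the log2 fold change of -1.22 ± 0.81 (SE) was 0.19 without it. Txnrd1, the selenium-containing reductase of Txn1, was at 186 and 243 CPM, against 200.1 and 229 CPM in WT, and was among the most even members, with means of 215 ± 40.1 and 214 ± 20.3 CPM (SD, n = 2 each). Txn2, the mitochondrial thioredoxin, was at 210.3 and 152 CPM, against 190.0 and 220.3 CPM in WT, with overlapping groups. Its reductase Txnrd2 was low, with 124 and 2 reads in the KO-labelled libraries, against 39 and 108 in WT, so Per3 KO 2, the deepest library, had the fewest. Txnrd3, the reductase known from mouse testis, had 372 and 1047 reads, against 75 and 484 in WT. Txnip, which binds and inhibits thioredoxin and limits glucose uptake, was at 42.1 and 93.3 CPM, against 47.4 and 75.9 CPM in WT. Its log2 fold change of 0.14 ± 0.57 (SE) was -0.55 without Per3 KO 2. No member of the system separated the groups, and their median of -0.09 was -0.13 with DESeq2 size factors and 0.27 with RPKM values. It was 0.36 without WT 2, where 5 of 6 were positive, and -0.56 without WT 1, where 0 of 6 were.

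Superoxide dismutases turn superoxide into peroxide, and catalase breaks peroxide down in peroxisomes. Sod1, the cytosolic copper-zinc form, was at 94.2 and 93.9 CPM in Per3 KO 1 and Per3 KO 2, against 105 and 157 CPM in WT 1 and WT 2. Sod2, the manganese form of mitochondria, was at 65.3 and 68.8 CPM, against 76.5 and 91.3 CPM in WT. Both lay wholly below WT as CPM, Sod2 by little, and as RPKM the groups of Sod2 overlapped. The log2 fold changes were -0.47 ± 0.51 for Sod1 and -0.32 ± 0.47 for Sod2 (SE), which were -0.14 and -0.18 without WT 2. Sod3, the extracellular form, was at 154 and 106 CPM, against 87.2 and 246 CPM in WT, and Cat at 89.0 and 128 CPM, against 133 and 57.1 CPM. Both overlapped, with log2 fold changes of -0.35 ± 0.64 and 0.19 ± 0.59 (SE), which were 0.58 and -0.28 without WT 2. Over these 4 genes the median of -0.34 was -0.39 with DESeq2 size factors, 0.02 with RPKM values and -0.16 without WT 2.

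**Figure D4:**
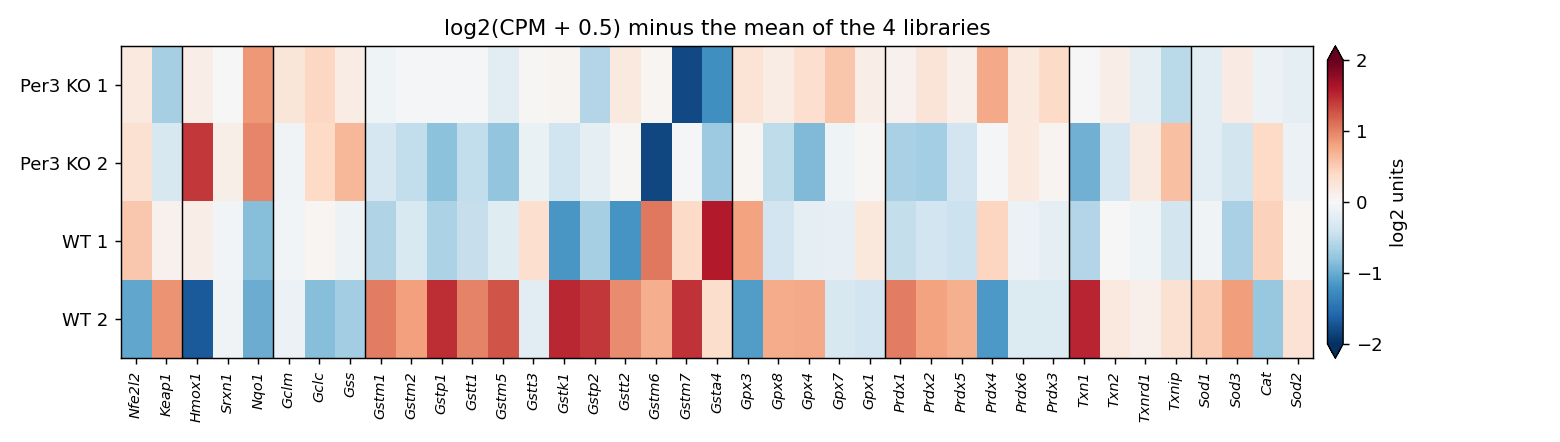
Each cell is the log2(CPM + 0.5) of 1 library (rows) minus the mean of the 4 libraries for 1 gene (columns, in role order), red above and blue below the mean, with the scale ending at 2 in each direction. WT 2 is the highest library for 23 and the lowest for 18 of the 49 tested members, while for Nqo1 both KO-labelled rows are red and both WT rows blue.

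By the place where the proteins act, 5 members taken as mitochondrial (Sod2, Prdx3, Txn2, Txnrd2 and Gstk1, not a complete set) did not move together. Prdx3 lay above and Sod2 below WT, and the other 3 overlapped. Of the endoplasmic reticulum members, Gpx7 lay above WT while Gpx8 and Prdx4 overlapped. The KO-labelled values of the secreted Gpx3 and Sod3 were enclosed by the WT pair, with WT 2 the lower for Gpx3 and the higher for Sod3.

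Other genes of the pathway were read from lists that hold no member. Of 13 tested NRF2 partners and regulators, log2 fold changes were positive in 4 and negative in 9 (median -0.10). Rbx1, a subunit of the ligase that KEAP1 recruits, was at 198 and 138 CPM in Per3 KO 1 and Per3 KO 2, against 171 and 500.0 CPM in WT 1 and WT 2. Of 30 other NRF2 target genes, 20 were positive and 10 negative (median 0.14), beside 50.6% positive over all genes. Both KO-labelled libraries lay above WT in 3 of the 30 and below WT in 0, beside 14.6% and 11.5% of all genes. Tkt, the transketolase of the pentose phosphate pathway, was one of the 3, at 321 and 249 CPM, against 232 and 86.7 CPM in WT, with a log2 fold change of 0.84 ± 0.64 (SE) that was between 0.31 and 1.72 with a library left out. The ferritin chains went with WT 2, Fth1 at 337 and 327 CPM against 300.1 and 1034 CPM in WT and Ftl1 at 2635 and 1946 CPM against 2013 and 6398 CPM in WT.

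Genes of glutathione supply and turnover were positive in 10 and negative in 11 of 21 tested (median -0.01). Chac2, a glutathione-degrading enzyme, was at 8.81 and 5.98 CPM in Per3 KO 1 and Per3 KO 2, against 1.90 and 2.58 CPM in WT 1 and WT 2. The groups did not overlap, and its log2 fold change of 1.72 ± 0.86 (SE) was between 1.39 and 1.97 with a library left out. Hagh, the glyoxalase that frees glutathione from its lactoyl adduct, was at 16.2 and 20.05 CPM, against 36.0 and 31.7 CPM in WT, a log2 fold change of -0.90 ± 0.49 (SE) that was between -1.06 and -0.77. Selenoprotein genes were positive in 6 and negative in 8 of 14 tested (median -0.18). Methionine sulfoxide reductases and sestrins were positive in 5 and negative in 4 of 9 (median 0.10). Among sources of superoxide and peroxide, 7 were positive and 8 negative of 15 (median -0.03). Nox4, the peroxide-making oxidase of stromal cells, was at 8.16 and 3.68 CPM, against 18.2 and 10.3 CPM in WT, wholly below WT with a log2 fold change of -1.27 ± 0.73 (SE), which was between -1.96 and -0.80 with a library left out. Groups lay apart above and below WT in 1 and 0 of the NRF2 partners, 3 and 1 of the glutathione supply genes, 1 and 1 of the selenoprotein genes, 3 and 1 of the reductases and sestrins, and 0 and 2 of the sources. No gene of these lists passed the test over all genes (edgeR, 0 called, 1 with an unadjusted p under 0.05).

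Markers of other cells were low beside the 67670 to 76167 CPM of the precursor list in the KO-labelled libraries and 79462 to 111144 CPM in WT. The highest sum was that of the hepatocyte list given above, at 1655 CPM in Per3 KO 2 and 459 CPM in WT 1. It was 88.4 CPM in Per3 KO 1 and 82.7 CPM in WT 2. Erythroid genes summed to 0.362 and 5.52 CPM in the KO-labelled libraries, against 4.44 and 1.81 CPM in WT. The leukocyte list of 15 genes summed to 54.8 and 34.6 CPM in Per3 KO 1 and Per3 KO 2, against 27.7 and 72.0 CPM in WT 1 and WT 2. Of its 10 tested genes, 3 lay above and 3 below WT, beside 14.6% and 11.5% of all genes tested. Cd74 lay above, at 11.3 and 7.38 CPM against 3.08 and 4.73 CPM in WT. Cd52 and S100a8 lay below, with 0 reads in both KO-labelled libraries. In WT 1 and WT 2 they had 28 and 126 reads (Cd52) and 10 and 35 reads (S100a8). These were the 2 of 10 with an unadjusted p under 0.05 in edgeR, beside 2.06% of all genes. Macrophages also make Hmox1, and the CD45- gate is meant to remove them. For the CD45 gene Ptprc, low counts remained: 50 reads in Per3 KO 2 and 4 in Per3 KO 1. WT 2 had 5 and WT 1 had 0. Per3 KO 2 was the highest library for Ptprc and for Hmox1. The leukocyte sum was instead highest in WT 2, the lowest library for Hmox1. The part of the leukocyte list in Hmox1 was not tested. The endothelial list (9 of 10 detected, Tie1 at 0) summed to 73.8 and 174 CPM, against 160 and 135 CPM in WT. Most of this sum was Tek alone, at 63.8 and 161 CPM, against 155 and 122 CPM in WT. The skeletal muscle list of 9 genes summed to 27.3 and 26.9 CPM, against 62.2 and 96.9 CPM in WT. Mature adipocyte genes (7 of 8, Lep at 0) summed to 7.51 and 13.9 CPM, against 15.5 and 11.5 CPM, and epithelial genes (8 of 8) to 4.27 and 11.05 CPM, against 13.9 and 7.01 CPM. The sums of the skeletal muscle and the precursor lists were apart in the same direction as Keap1, Gstm6, Gstm7, Gsta4, Sod1 and Sod2, and their part in these was not tested.

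**Figure D5:**
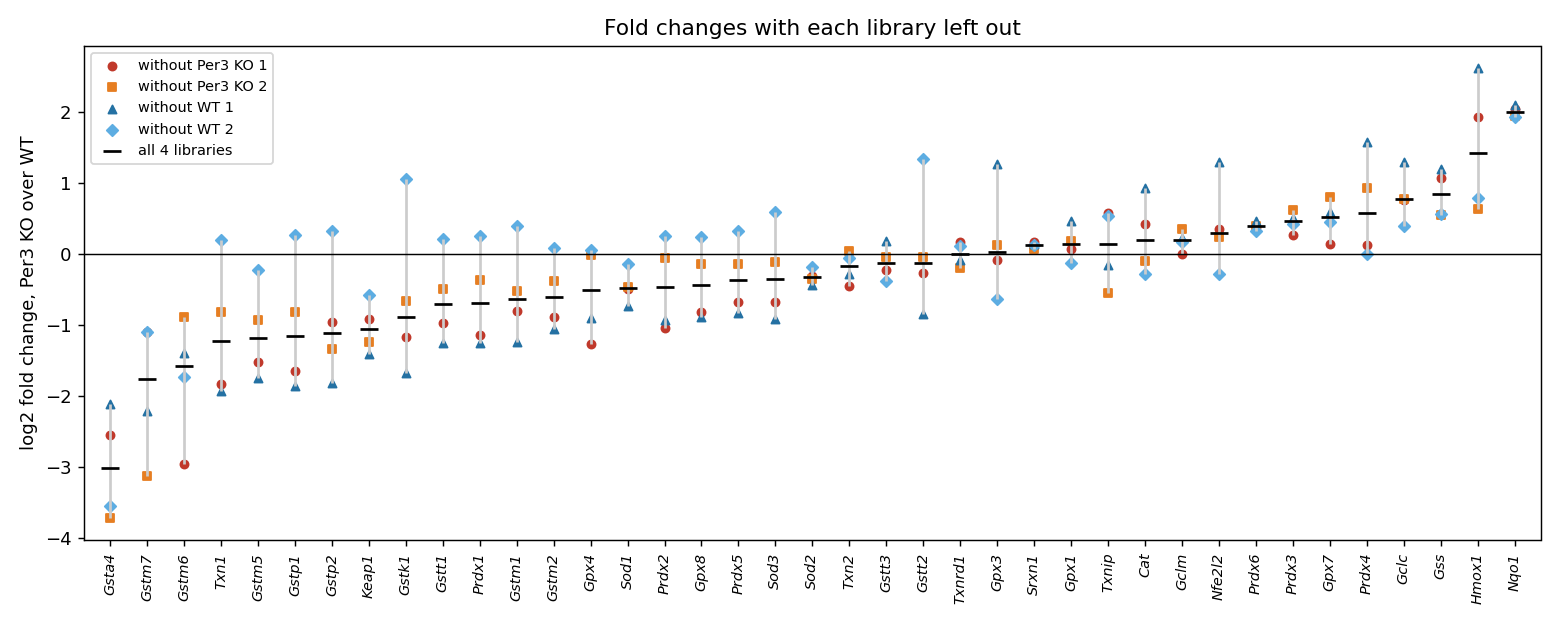
Log2 fold change of Per3 KO over WT for 39 members with all 4 libraries (black bars) and with each library left out in turn (points; the grey line spans them). Leaving out WT 2 moves many transferases and peroxiredoxins across 0, whereas Nqo1 stays between 1.93 and 2.09 and Keap1 between -1.41 and -0.58.

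Of the 39 members with a fold change examined in this way, 24 changed sign when 1 library was left out, and WT 2 was that library for 19. The 15 that kept their sign in every alternative run that held them were Nqo1, Hmox1, Srxn1, Gclc, Gss, Gpx7, Prdx3 and Prdx6 on the positive side and Keap1, Gsta4, Gstm5, Gstm6, Gstm7, Sod1 and Sod2 on the negative side. Gsta4, at a mean of 0.994 RPKM, was too low for the limma runs. Keeping a sign is no test, and 14 of the 49 tested members, near the background share, had groups that did not overlap.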

How the data were processed

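The members and gene lists were chosen with earlier results of these data known. The deposited read counts were an estimated count per gene, not normalised, per the file headers, and 8.85% to 12.0% of genes had a value that was not whole. The deposited RPKM values divide reads by length and library size, per the file headers. The submitters' processing notes name STAR 2.4.0, Cufflinks, Cuffdiff 2.2.1 and the build mm9. How reads were counted, and whether by strand, is not given in the sources used here.

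Tables were joined by symbol. Counts were rounded, filtered with filterByExpr (minimum count 10, minimum total 15, leaving 12494 genes), scaled by TMM (factors 1.04, 1.12, 1.03 and 0.832 for Per3 KO 1, Per3 KO 2, WT 1 and WT 2) and compared with edgeR 4.0.16 (glmQLFit, glmQLFTest, prior count 0.125, two-sided) in R 4.3.3. The threshold was an adjusted p of 0.05. A standard error is the fold change over the square root of F. Depth was 27950825 to 64964443 reads. Every pair of libraries differed by more than sampling noise (chi-square over its degrees of freedom 157 to 1041).

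Fold changes were to be given for members with a mean RPKM of at least 10, for members with an unadjusted p under 0.05, and for Nfe2l2, Keap1, Hmox1, Nqo1, Gclc and Gclm, and list genes were the 4 with the lowest p. Alternatives were DESeq2 1.42.0, its size factors in edgeR, no filter, limma 3.58.1 on log2(RPKM + 0.5, 0.1 or 1) where the mean RPKM reached 1, the replicate block, and each library left out, where the lone library takes the spread of the other group. The test was run on simulated data for this comparison. At the spread of these libraries, edgeR recovered 2% of the simulated 4-fold changes and 42% of the 16-fold changes. Most real changes of 4-fold could thus go uncalled here. Some genes of the lists are not reported here.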

Additional observations from a re-analysis of the deposited data

How the results depend on the processing

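No member was called under any alternative. Over all genes, DESeq2 called 14 of 12494 and its size factors in edgeR called 0. The fit without a filter called 4 of 16743, the replicate block 1 of 12494 and limma 1 of 8290 at each pseudocount. Members with an unadjusted p under 0.05 numbered 1 with all libraries (257 of 12494 genes), 5 with DESeq2 (488 of 12494), 4 without a filter (580 of 16743), 3 with the replicate block (164 of 12494) and 1 to 14 with a library left out, the 14 without WT 1 (2187 of 12494). Deviations of same-numbered libraries from their group means were only weakly related across genes (r = -0.14). With 2 libraries in each group, the other pairing must give the same r with its sign turned (0.14), so these values do not settle a pairing. A crossed block, added after seeing the data, gave 4 members with an unadjusted p under 0.05. Numbers pair no animals in the labels, and neither block called a member. The median log2 fold change of the members was -0.13, and 0.13 with limma at a pseudocount of 0.5, 0.13 at 0.1 and -0.33 to 0.24 with a library left out, the 0.24 without WT 2. RPKM moved the median of all genes to 0.27, against -5.7e-05 for the same genes with TMM, and the median of the tested members among them was 0.13 with RPKM. Groups that did not overlap numbered 14 as CPM, with Gclm and Gstm3 added and Sod2 lost as RPKM, and Hmox1 and Gsto1 added with DESeq2 size factors.

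With a library left out, log2 fold changes crossed 0 with ranges of -0.28 to 0.92 for Cat, -0.0019 to 0.35 for Gclm, -0.13 to 0.46 for Gpx1, -0.63 to 1.27 for Gpx3, -1.27 to 0.053 for Gpx4, -0.89 to 0.24 for Gpx8, -1.68 to 1.05 for Gstk1, -1.24 to 0.40 for Gstm1, -1.06 to 0.076 for Gstm2, -1.86 to 0.26 for Gstp1, -1.82 to 0.32 for Gstp2, -1.25 to 0.21 for Gstt1, -0.84 to 1.34 for Gstt2, -0.38 to 0.18 for Gstt3, -0.28 to 1.29 for Nfe2l2, -1.25 to 0.25 for Prdx1, -1.04 to 0.26 for Prdx2, -0.0054 to 1.58 for Prdx4, -0.84 to 0.32 for Prdx5, -0.92 to 0.58 for Sod3, -1.92 to 0.19 for Txn1, -0.45 to 0.036 for Txn2, -0.55 to 0.57 for Txnip and -0.20 to 0.16 for Txnrd1. With limma at pseudocounts of 0.5, 0.1 and 1, values turned positive for Gstt2 (0.48, 0.51 and 0.45), Gstt3 (0.16, 0.17 and 0.15), Sod3 (0.081, 0.083 and 0.079) and Txn2 (0.084, 0.084 and 0.083). Txnrd1 was -0.042 with DESeq2, -0.042 with its size factors and -0.0079 with the replicate block, and Gstt2 was 0.24 with the replicate block. Apart from the library left out and the RPKM scale, the cause was not tested. With 2 libraries in each group and a wide WT pair, the data limit what can be called, and members with few reads, such as Gsta2, Gsta4 and Gstt4, are the least certain.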
